A study of Homo sapiens with 12 samples.

Results

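The collagen chain genes were examined in MDA-MB-231 cells, an established human triple-negative breast cancer (TNBC) line with mesenchymal features. They are the genes whose symbol has the form COL, a type number, A and a chain number in both deposited expression tables, and the rule found 44 of the 60558 genes that the tables share. By collagen class they comprise 11 fibrillar, 6 type IV network, 3 short-chain network, 5 type VI beaded filament, 1 type VII anchoring fibril, 10 fibril-associated (FACIT), 4 transmembrane and 2 multiplexin genes and 2 others. RNA-seq was performed in 2 experiments, on cells with NONO knockdown and on cells with PKM2 knockdown, each with its own negative control (NC) cells, to find transcriptional targets shared by NONO, an RNA- and DNA-binding paraspeckle protein, and PKM2, an isoform of pyruvate kinase. Each of the 4 groups had 3 libraries, and no library was shared between the experiments. The NC cells carry the genotype label WT, the series names siRNA as the reagent, and 1 cell line was used, with no other allele or agent in the labels. The labels do not say whether the 3 libraries of a group came from separate cultures, so the P values measure only the spread between these libraries.

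Collagens are matrix proteins whose chains wind around each other into rope-like helices. Fibrillar collagens pack into the tensile fibrils of stroma, type IV collagen forms the sheet of basement membranes, type VI collagen forms beaded filaments next to cells, and FACIT collagens sit on fibril surfaces. Transmembrane collagens are anchored in the plasma membrane, and multiplexins are basement membrane collagens that carry glycosaminoglycan chains. Chains are hydroxylated, glycosylated and folded in the endoplasmic reticulum, exported in large carriers, trimmed outside the cell and cross-linked by lysyl oxidases. In breast tumors much of the fibrillar collagen is made by stromal fibroblasts, while tumor cells contribute to the basement membrane.

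The estimated counts summed to between 19861762 and 20981712 per library in the NONO experiment and to between 24097948 and 28455268 in the PKM2 experiment. The chi-square between the gene counts of replicate libraries, divided by its degrees of freedom, lay between 2.33 and 4.17 in most pairs. It reached 8.29 and 10.2 in the pairs of the first NC library in the NONO experiment and 10.46 and 12.3 in those of the third PKM2-knockdown library. These libraries stood apart from the others of their group, and values without them are given beside several of the calls that change. NONO fell by 2.57 on the log2 scale (SE 0.05, adjusted P = 1.17e-10) after its knockdown and PKM, whose table entry holds both the PKM1 and PKM2 isoforms, fell by 3.32 (SE 0.05, adjusted P = 7.03e-12). The 6 markers of mesenchymal-like TNBC cells (VIM, CD44, ZEB1, AXL, CAV1 and EGFR) passed the low-count filter in both experiments. Of 7 fibroblast markers (DCN, LUM, PDGFRA, PDGFRB, FAP, THY1 and DPT), 0 passed in the NONO experiment and only PDGFRB in the PKM2 experiment, at 0.537 TPM ± 0.220 (SD, n = 3) in NC cells. Of 6 luminal epithelial markers, EPCAM, ERBB2 and GATA3 passed in both experiments, and CDH1, ESR1 and PGR did not. After PKM2 knockdown EPCAM (-0.70), ERBB2 (-0.86), GATA3 (-0.83) and PDGFRB (-1.77) were lowered, and after NONO knockdown GATA3 was (-0.87). Of the 6 mesenchymal markers, 3 were raised and 1 lowered after NONO knockdown, with log2 fold changes from -0.41 (EGFR) to 0.37 (CAV1). After PKM2 knockdown 2 were raised and 2 lowered, from -0.54 (ZEB1) to 0.15 (CAV1). Of all genes tested, 16.2% were raised and 17.2% lowered after NONO knockdown, and 33.6% and 34.7% after PKM2 knockdown. The part of these markers in the collagen changes was not tested.

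The low-count filter was passed by 22 of the 44 collagen genes in each experiment, by 21 in both and by 23 in either. Levels are compared between genes in TPM, a depth- and length-normalized transcript abundance. COL13A1, a transmembrane collagen of adhesion sites and the neuromuscular junction, ranked first among the collagens of NC cells in both experiments. It reached 134, 178 and 177 TPM in the NC libraries of the NONO experiment and 149, 156 and 158 TPM in those of the PKM2 experiment. It alone made up 35.5% ± 2.4 (SD, n = 3) and 36.0% ± 0.4 (SD, n = 3) of the summed collagen TPM.

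COL4A2, a basement membrane chain, and COL12A1, a FACIT collagen, came next and overlapped each other. COL4A2 lay between 54.3 and 69.6 TPM in the NC libraries of the NONO experiment and COL12A1 between 49.7 and 65.2 TPM. In the PKM2 experiment the NC ranges were 47.1 to 50.7 TPM for COL4A2 and 49.3 to 55.8 TPM for COL12A1. COL6A2 followed at 39.4 and 38.4 TPM in the mean of the NC libraries, below both in each experiment. COL18A1 (24.3 and 24.8 TPM), COL6A1 (23.7 and 24.6 TPM) and COL8A1 (23.1 and 20.8 TPM) formed the next step, within which COL18A1 and COL6A1 overlapped in both experiments. COL4A1, COL27A1 and COL5A1 had NC means between 10.7 and 13.6 TPM and COL7A1, COL1A1, COL4A5 and COL17A1 between 2.97 and 8.11 TPM. COL16A1, COL9A2 and COL4A4 stayed between 0.927 and 1.70 TPM. COL6A1 and COL8A1 overlapped in the NONO experiment as well. By NC means the first 7 collagens thus had the same order in both experiments apart from the overlapping pair COL4A2 and COL12A1. The order of overlapping genes, such as COL18A1 and COL6A1, is not resolved by these libraries.

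**Figure D1:**
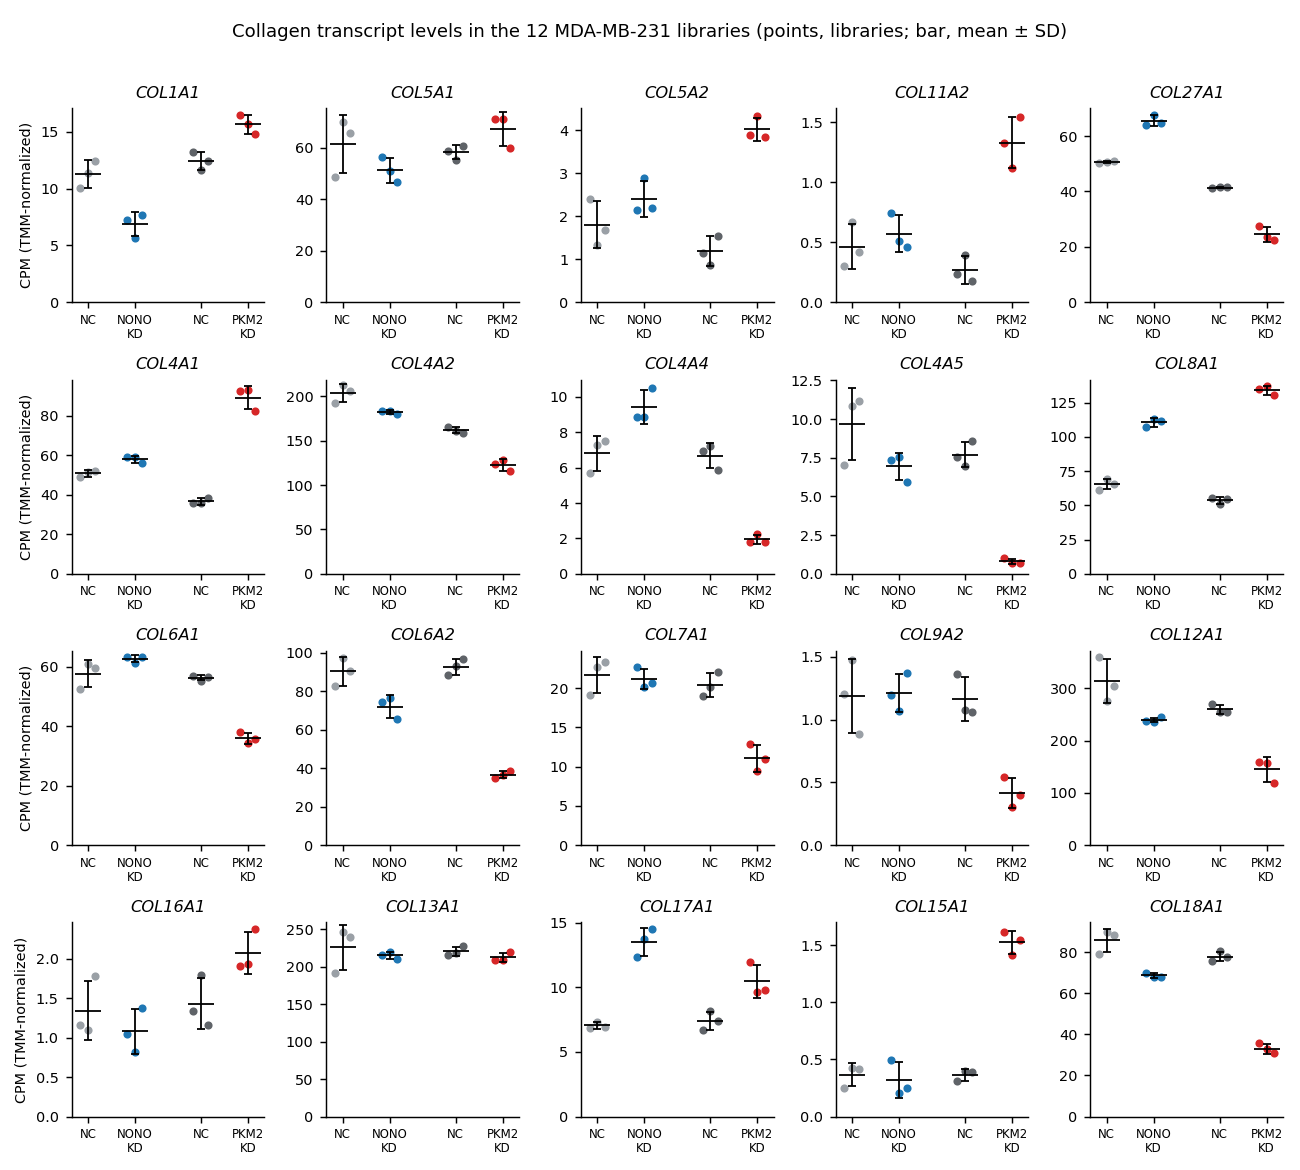
TMM-normalized, depth-scaled counts (CPM, y axis, linear from 0) of 20 collagen genes in the NC and knockdown libraries of the NONO experiment (left pair) and the PKM2 experiment (right pair). Points are single libraries and the black bar is the mean ± SD of 3; COL4A5 is near 0 in the 3 PKM2-knockdown libraries, while COL13A1 lies between 191 and 246 CPM throughout.

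The 21 collagens that passed the filter in neither experiment were COL1A2, COL2A1, COL3A1, COL5A3, COL11A1, COL24A1, COL8A2, COL10A1, COL6A5, COL6A6, COL9A1, COL9A3, COL14A1, COL19A1, COL20A1, COL21A1, COL22A1, COL23A1, COL25A1, COL26A1 and COL28A1. Their highest estimated count in any library was 16, for COL9A3, and no fold change was tested for them. COL1A2, which encodes the usual partner of the COL1A1 chain in type I collagen, had 0 to 2 counts in every library, and COL3A1, the chain of type III collagen, had 0 to 4. COL9A3 had 16, 11 and 6 counts in the NC libraries of the PKM2 experiment and 1, 0 and 2 after PKM2 knockdown, without overlap, and it shares 45 exon bases with TCFL5 on the opposite strand. COL23A1, a transmembrane collagen, was listed at 1.00 to 3.01 TPM in the PKM2 experiment on only 3.85 to 11.1 counts and at 0 in the NONO experiment. COL10A1, a collagen of hypertrophic cartilage, was listed at 3.51 TPM in the third NONO-knockdown library on 4 counts. These TPM values rest on too few reads to be read as levels.

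Fold changes were tested with edgeR's quasi-likelihood test against each experiment's own NC group, and a gene was called raised or lowered at a Benjamini-Hochberg adjusted P below 0.05, with the adjustment made over the whole table. CPM denotes counts scaled by depth with TMM factors. After NONO knockdown, 6 collagens were raised (COL6A3, COL17A1, COL8A1, COL4A4, COL27A1 and COL4A1) and 5 were lowered (COL1A1, COL12A1, COL6A2, COL18A1 and COL4A2). That is 50% of the 22 tested, against 33.4% of all 14832 genes tested, of which 16.2% were raised and 17.2% lowered. Only COL6A3 changed more than 2-fold at an unadjusted P below 0.05, the study's cutoff for a differentially expressed gene (DEG), which 2.95% of all genes met (0.789% upward and 2.16% downward). The median log2 fold change of the 22 collagens was -0.0046, beside -0.011 for all genes. Without the NC library that stood apart, 5 collagens were raised and 8 lowered, and of all 15170 genes tested in that fit 3189 were raised and 3060 lowered.

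The PKM2 knockdown changed more collagens and by more. A rise was called for 8 (COL11A2, COL15A1, COL5A2, COL8A1, COL4A1, COL17A1, COL1A1 and COL5A1) and a fall for 10 (COL4A5, COL4A4, COL9A2, COL6A2, COL18A1, COL7A1, COL12A1, COL27A1, COL6A1 and COL4A2). That is 81.8% of the 22 tested, against 68.4% of all 15524 genes tested, of which 33.6% were raised and 34.7% lowered. Of these, 5 rose and 5 fell past the DEG cutoff, which 20.8% of all genes met (7.05% upward and 13.8% downward). COL13A1, COL4A3, COL6A3 and COL16A1 were not called. The median log2 fold change of the 22 was -0.23, beside -0.015 for all genes. This median is not adjusted for the trend of fold changes with transcript length and GC content, which is given below. Without the third PKM2-knockdown library 8 collagens were raised and 11 lowered, and of all 15912 genes tested in that fit 5376 were raised and 5487 lowered.

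The difference between the responses, PKM2 minus NONO, was tested as an interaction over the 12 libraries. It was called for 18 of 23 collagens (78.3%, against 53.1% of all 15995 genes tested), with 7 responding more upward and 11 more downward to PKM2 knockdown (25.7% and 27.4% of all genes). In the single experiments, 10 of the 21 collagens tested in both were called in both, against 27.2% of the 14525 genes tested in both. COL4A1, COL8A1 and COL17A1 were raised in both, COL4A2, COL6A2, COL12A1 and COL18A1 were lowered in both, and COL1A1, COL27A1 and COL4A4 were called in opposite directions. Over all genes tested in both, 9.34% were raised in both, 9.93% were lowered in both and 7.97% were called in opposite directions. On log2(TPM + 1) with limma, 8 collagens differed between the knockdowns, and of all 14091 genes tested 2955 differed upward and 3483 downward. That fit kept only genes with a mean of at least 1 TPM, which left out COL5A2, COL11A2, COL15A1, COL4A4 and COL9A2. The experiments differ in depth, in the transcript lengths their tables list and in NC libraries as well as in the gene knocked down, and these cannot be told apart.

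**Figure D2:**
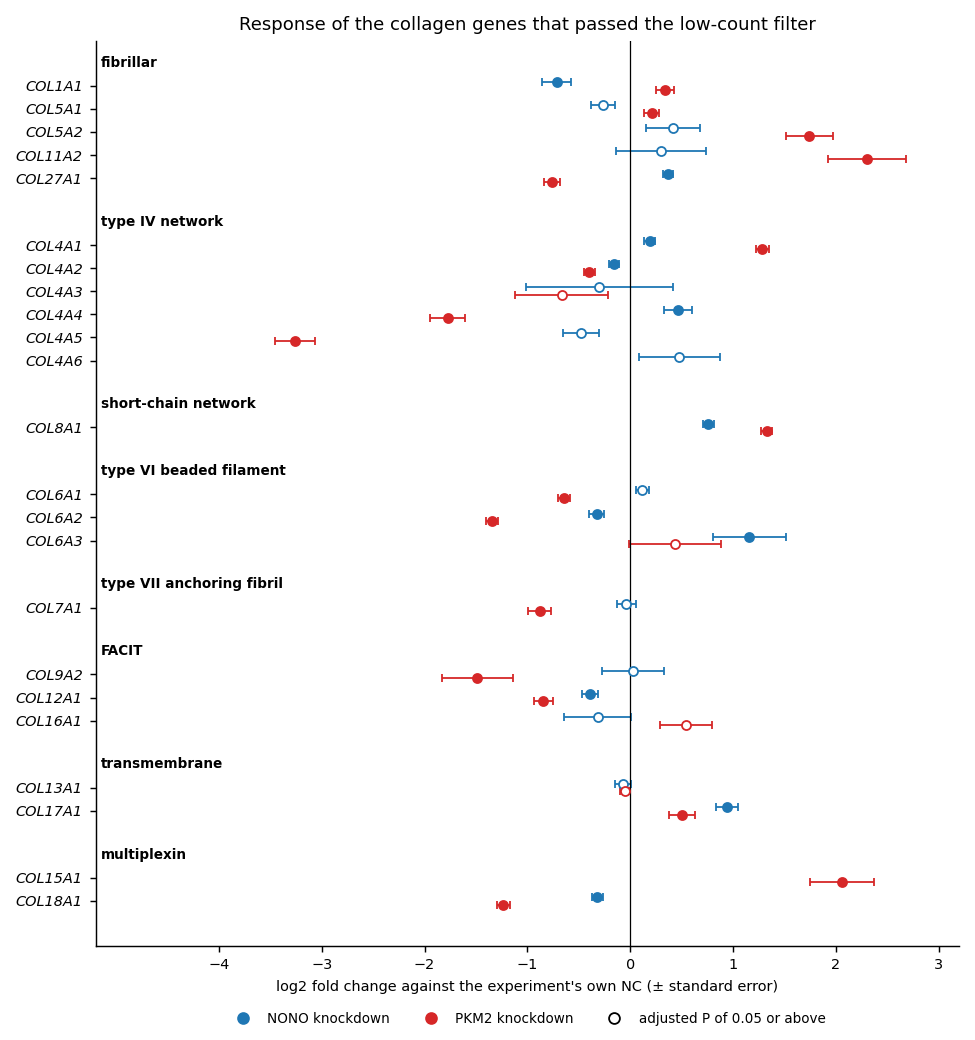
Log2 fold change (x axis, ± standard error) of the collagens that passed the low-count filter, by class, after NONO knockdown (blue) and PKM2 knockdown (red); filled points have an adjusted P below 0.05. The red points spread from -3.26 (COL4A5) to 2.30 (COL11A2) and the blue points from -0.72 (COL1A1) to 1.16 (COL6A3).

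The fibrillar chains moved apart. COL1A1, the major chain of type I collagen, stood at 10.04, 11.4 and 12.4 CPM in the NC libraries of the NONO experiment and at 7.28, 5.64 and 7.68 CPM after NONO knockdown. In the other experiment it stood at 13.2, 11.6 and 12.4 CPM in NC cells and at 16.5, 15.7 and 14.8 CPM after PKM2 knockdown. The groups did not overlap in either experiment, with lower values after the first knockdown and higher values after the second. The log2 fold changes were -0.72 (SE 0.14, adjusted P = 0.00226) and 0.34 (SE 0.09, adjusted P = 0.00502), and the difference of 1.04 was called (SE 0.16, adjusted P = 4.08e-05). In TPM the NC and PKM2-knockdown libraries overlapped, and limma on log2(TPM + 1) gave 0.10 with an adjusted P of 0.609, so the rise rests on the count scale.

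COL5A1 and COL5A2 encode partner chains of type V collagen, which sets the diameter of type I fibrils. COL5A2 rose from 1.16, 0.874 and 1.55 CPM in NC cells to 3.90, 4.34 and 3.85 CPM after PKM2 knockdown, 3.34-fold (log2 1.74, SE 0.23, adjusted P = 3.16e-05), with no overlap. After NONO knockdown COL5A2 lay at 2.14, 2.90 and 2.19 CPM beside 2.41, 1.34 and 1.68 CPM in NC cells, and these groups overlapped. COL5A1 was far more abundant, at 58.9, 55.4 and 60.7 CPM in the NC libraries of the PKM2 experiment and at 71.2, 71.3 and 59.9 CPM after the knockdown. The third PKM2-knockdown library fell within the NC range of COL5A1, the log2 fold change was 0.21 (SE 0.07, adjusted P = 0.0237), and the call was lost in 4 of the 6 fits that left out 1 library. After NONO knockdown COL5A1 read 56.4, 51.2 and 46.6 CPM against 48.9, 70.2 and 66.0 CPM in NC cells, where the NC library that stood apart is the low value. Its log2 fold change was -0.26 (adjusted P = 0.105), and without that library it was -0.40 (adjusted P = 4.22e-05). The difference between the responses was called for COL5A2 at 1.31 (SE 0.36, adjusted P = 0.00503) and for COL5A1 at 0.46 (SE 0.15, adjusted P = 0.0149).

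COL11A2, a chain of the thin fibrils of cartilage, was scarce in NC cells. Its estimated counts were 7, 10 and 5 in the NC libraries of the PKM2 experiment and 32, 26 and 39 after PKM2 knockdown, in CPM a 4.91-fold rise (log2 2.30, SE 0.38, adjusted P = 0.000194). Every knockdown library lay above every NC library, although the level stayed under 1 TPM. In the NONO experiment COL11A2 had 6, 14 and 9 counts in NC cells and 15, 10 and 9 after knockdown, which overlapped. COL27A1, a fibrillar chain of developing cartilage, showed the reverse pattern at a higher level. It rose from 50.3, 50.8 and 51.0 CPM to 63.9, 67.7 and 64.7 CPM after NONO knockdown (log2 0.37, SE 0.05, adjusted P = 0.000229). After PKM2 knockdown it fell from 41.2, 41.5 and 41.6 CPM to 27.7, 23.5 and 22.4 CPM (log2 -0.76, SE 0.08, adjusted P = 4.07e-06). NC libraries differed by less than 1 CPM in both experiments, and no groups overlapped. The difference was -1.14 (SE 0.09, adjusted P = 1.98e-08) for COL27A1 and 1.98 (SE 0.59, adjusted P = 0.00917) for COL11A2.

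The type IV genes lie in head-to-head pairs, COL4A1 with COL4A2 on chromosome 13, COL4A3 with COL4A4 on chromosome 2 and COL4A5 with COL4A6 on chromosome X. In the RefSeq promoter table (GRCh38.p14), which holds windows for 32 of the 44 collagens, the starts of the pairs are 126, 418 and 379 bases apart. The segment between the RefSeq starts of COL4A1 and COL4A2 is shown because this partner pair moved in opposite directions. The 250 bases before the RefSeq starts of COL4A4 and COL4A5 are shown because these genes fell most after PKM2 knockdown. Capitals mark GC boxes (GGGCGG) and CCAAT boxes (CCAAT) on either strand.
COL4A1/COL4A2, chr13:110307158-110307283, plus strand: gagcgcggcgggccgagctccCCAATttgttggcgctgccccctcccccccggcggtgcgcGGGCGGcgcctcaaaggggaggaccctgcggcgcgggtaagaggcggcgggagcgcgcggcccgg
COL4A4, chr2:227164206-227164455, minus strand: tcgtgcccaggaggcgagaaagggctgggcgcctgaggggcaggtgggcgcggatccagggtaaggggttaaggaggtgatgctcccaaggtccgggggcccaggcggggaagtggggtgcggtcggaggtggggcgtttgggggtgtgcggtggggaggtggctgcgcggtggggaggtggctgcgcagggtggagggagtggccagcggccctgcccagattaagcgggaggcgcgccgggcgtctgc
COL4A5, chrX:108439588-108439837, plus strand: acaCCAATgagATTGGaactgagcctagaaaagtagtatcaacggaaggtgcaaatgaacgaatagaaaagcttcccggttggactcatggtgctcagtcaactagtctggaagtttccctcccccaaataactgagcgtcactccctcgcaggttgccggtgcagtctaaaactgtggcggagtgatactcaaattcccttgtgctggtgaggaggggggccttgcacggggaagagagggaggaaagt
The COL4A1/COL4A2 segment holds 1 GC box and 1 CCAAT box and is 80.2% G or C. The window before the RefSeq start of COL4A4 holds neither motif at 72.8% G or C. That before COL4A5 holds 2 CCAAT boxes and no GC box at 51.2%. The COL4A4 result depends on the start used. The GENCODE gene positions given below run COL4A4 to 227164453, so nearly all of its window lies inside the gene. The COL4A3 window, chr2:227164374-227164623, reaches past that position and holds 2 GC boxes. By the GENCODE positions COL4A2 starts at 110305812, so the COL4A1/COL4A2 segment lies inside COL4A2. A GC box occurs in 42.6% and a CCAAT box in 32.0% of the 35116 windows of 250 bases before a start in the table.

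COL4A1 and COL4A2 encode the partner chains of the type IV collagen found in almost all basement membranes. After PKM2 knockdown COL4A1 (chr13:110148963-110307233, minus strand, GRCh38) rose from 35.7, 35.6 and 38.3 CPM to 92.2, 92.9 and 82.2 CPM. COL4A2 (chr13:110305812-110513209, plus strand) fell in the same libraries from 165, 161 and 159 CPM to 124, 128 and 116 CPM. Neither gene's groups overlapped, and the chains thus moved in opposite directions in every knockdown library. The changes were 2.44-fold up for COL4A1 (log2 1.28, SE 0.06, adjusted P = 9.92e-09) and log2 -0.40 for COL4A2 (SE 0.05, adjusted P = 2.71e-05).

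After NONO knockdown the directions were the same and the changes small. COL4A1 read 48.9, 51.5 and 52.2 CPM in NC cells and 58.9, 58.9 and 56.0 CPM after knockdown (log2 0.19, SE 0.05, adjusted P = 0.0185). COL4A2 read 193, 212 and 206 CPM in NC cells and 184, 183 and 180 CPM after knockdown (log2 -0.16, SE 0.05, adjusted P = 0.0189). Both calls were fragile, since COL4A1 lost its call in 2 and COL4A2 in 5 of the 6 fits that left out 1 library. On log2(TPM + 1) with limma neither was called (adjusted P = 0.405 and 0.132). The ratio of COL4A2 to COL4A1 in TPM fell from 4.63 ± 0.39 (SD, n = 3) to 3.61 ± 0.18 (SD, n = 3) in the NONO experiment and from 4.46 ± 0.30 (SD, n = 3) to 1.53 ± 0.06 (SD, n = 3) in the PKM2 experiment, with no overlap in either. The difference between the responses was 1.08 (SE 0.08, adjusted P = 8.99e-09) for COL4A1. For COL4A2 it was -0.25 (SE 0.07, adjusted P = 0.00573).

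Fold changes after PKM2 knockdown varied with the base composition of transcripts across all genes. The median log2 fold change was 0.17 in the lowest and -0.29 in the highest of 20 bins of GC content. With the trend of length and GC content removed, the COL4A2 change after PKM2 knockdown was -0.10 and its difference between responses 0.014, while COL4A1 stood at 1.44. Most of the COL4A2 fall was removed by this step, and the adjusted values were not tested. Among other collagens, the same step moved the PKM2 response of COL1A1 from 0.34 to 0.62, of COL5A1 from 0.21 to 0.49, of COL27A1 from -0.76 to -0.47, of COL6A1 from -0.64 to -0.37 and of COL7A1 from -0.88 to -0.48. It moved COL18A1 from -1.24 to -0.87, less than a 2-fold fall. COL6A2 went from -1.34 to -1.04, COL9A2 from -1.49 to -1.20 and COL11A2 from 2.30 to 2.59. After this step the middle values of the 22 tested collagens were -0.10 (COL4A2) and 0.16 (COL13A1), on either side of 0. The median of -0.23 given above for the PKM2 response was therefore not kept.

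**Figure D3:**
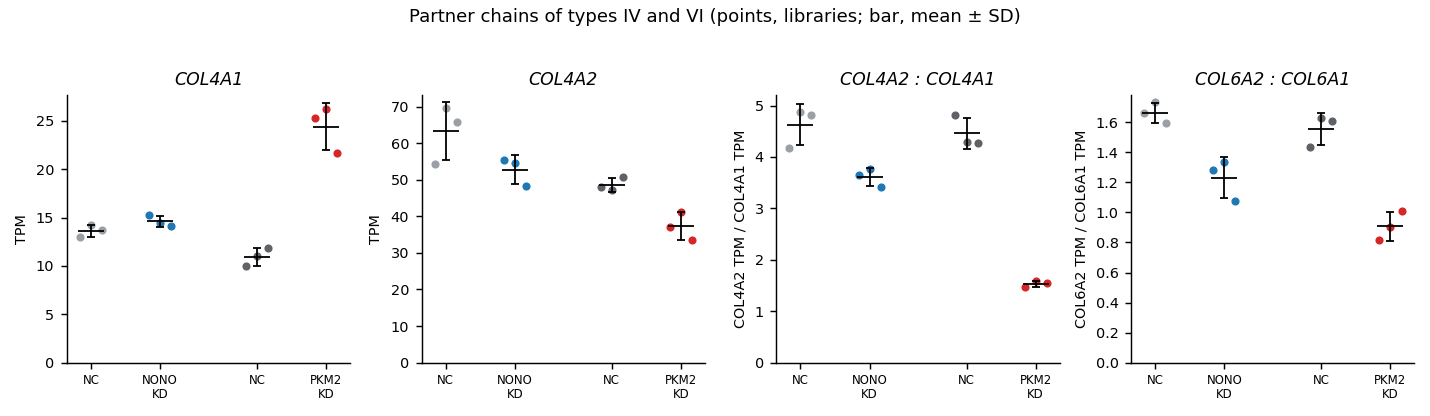
COL4A1 and COL4A2 in TPM (left panels, y axis from 0) and the TPM ratios of COL4A2 to COL4A1 and of COL6A2 to COL6A1 (right panels) in the 12 libraries; points are libraries and the bar is the mean ± SD of 3. Both ratios are lowest after PKM2 knockdown, at 1.53 and 0.909 on average.

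COL4A3, COL4A4 and COL4A5 encode the chains of the specialised basement membrane of kidney, lung and inner ear. COL4A5 (chrX:108439844-108697545, plus strand) had the largest change of any collagen. It went from 7.58, 6.95 and 8.57 CPM in NC cells to 0.995, 0.688 and 0.713 CPM after PKM2 knockdown, on 24, 16 and 18 counts. That is a 9.60-fold fall (log2 -3.26, SE 0.20, adjusted P = 4.02e-08), and the groups were far apart. After NONO knockdown COL4A5 read 7.38, 7.53 and 5.95 CPM beside 7.03, 10.8 and 11.2 CPM in NC cells, where the first NC library overlapped the knockdown range. This log2 fold change was -0.48 (SE 0.18, adjusted P = 0.0572), and -0.65 without that NC library (adjusted P = 0.000441).

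COL4A4 (chr2:227002711-227164453, minus strand) rose from 5.67, 7.29 and 7.48 CPM to 8.88, 8.85 and 10.5 CPM after NONO knockdown (log2 0.46, SE 0.14, adjusted P = 0.0235). It fell from 6.93, 7.23 and 5.86 CPM to 1.82, 2.23 and 1.78 CPM after PKM2 knockdown, 3.42-fold (log2 -1.78, SE 0.17, adjusted P = 1.87e-06). The groups did not overlap in either experiment, and the rise lost its call without the third NONO-knockdown library (adjusted P = 0.11). The differences between responses were the most negative of all collagens, -2.80 for COL4A5 (SE 0.28, adjusted P = 2.93e-07) and -2.25 for COL4A4 (SE 0.22, adjusted P = 1.45e-07). On log2(TPM + 1) with limma the COL4A5 difference was -0.82 and was not called (adjusted P = 0.19), and the rise of COL4A4 after NONO knockdown was not called either (0.25, adjusted P = 0.373). COL4A5 averaged 2.97 TPM in NC and 0.693 TPM in PKM2-knockdown libraries, where adding 1 shrinks a log2 ratio. Its TPM values also spread widely, at 1.42, 0.40 and 0.26 after PKM2 knockdown and 2.11, 3.55 and 6.38 in NC cells of the NONO experiment. The sizes -0.82 and -2.80 are not on the same scale, and the part of the added 1 in their gap was not tested. COL4A3 had 0 to 24 counts per library and was not called, with log2 fold changes of -0.30 (SE 0.71) and -0.67 (SE 0.45). COL4A6 passed the filter only in the NONO experiment and was not called (log2 0.48, SE 0.39, adjusted P = 0.388). Summed over the 6 genes, type IV CPM was 213 ± 2.5 (SD, n = 3) in NC cells and 215 ± 12.3 (SD, n = 3) after PKM2 knockdown, so the rise of COL4A1 and the falls of the others left the total within the spread.

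COL8A1, a short-chain collagen of vessel walls and the corneal basement membrane, was raised by both knockdowns. It read 61.4, 69.3 and 65.8 CPM in NC cells and 107, 113 and 112 CPM after NONO knockdown, 1.69-fold (log2 0.76, SE 0.05, adjusted P = 2.45e-06). With PKM2 knockdown it went from 55.3, 50.8 and 54.4 CPM in NC cells to 135, 137 and 131 CPM, 2.51-fold (log2 1.32, SE 0.05, adjusted P = 1.72e-09). All knockdown libraries lay above all NC libraries, and the rise was larger after PKM2 knockdown by 0.56 on the log2 scale (SE 0.07, adjusted P = 7.45e-06). Its share of the summed collagen TPM went from 4.85% ± 0.14 (SD, n = 3) to 15.7% ± 0.2 (SD, n = 3) in the PKM2 experiment, second only to COL13A1. COL8A2 and COL10A1, the other short-chain genes, did not pass the filter.

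The type VI chains fell after PKM2 knockdown. COL6A1 and COL6A2, which assemble with COL6A3 or a related chain, lie on chromosome 21 at chr21:45981737-46005050 and chr21:46098097-46132849, near COL18A1 at chr21:45405137-45513720 (all plus strand, GRCh38). COL6A2 fell from 88.4, 93.4 and 96.7 CPM to 34.7, 36.5 and 38.4 CPM, 2.54-fold (log2 -1.34, SE 0.06, adjusted P = 4.18e-09). COL6A1 fell from 56.9, 55.3 and 56.6 CPM to 37.9, 34.2 and 35.8 CPM (log2 -0.64, SE 0.06, adjusted P = 1.26e-06). Neither overlapped its NC group, and the ratio of COL6A2 to COL6A1 in TPM went from 1.56 ± 0.11 (SD, n = 3) to 0.909 ± 0.096 (SD, n = 3). COL6A3, at 10, 5 and 12 counts in NC cells and 13.9, 7 and 11 after PKM2 knockdown, overlapped and was not called.

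In the NONO experiment COL6A2 fell from 82.7, 97.6 and 90.7 CPM to 74.2, 76.5 and 65.5 CPM (log2 -0.33, SE 0.07, adjusted P = 0.00485). COL6A1 read 52.6, 60.8 and 59.5 CPM in NC cells and 63.2, 61.2 and 63.3 CPM after knockdown, which did not pass the test (log2 0.12, SE 0.06, adjusted P = 0.168). The ratio of COL6A2 to COL6A1 in TPM also fell here, from 1.66 ± 0.07 (SD, n = 3) to 1.23 ± 0.14 (SD, n = 3), without overlap. COL6A3 had 7, 13 and 18 counts in NC cells and 29, 22 and 30 after NONO knockdown, a 2.23-fold rise (log2 1.16, SE 0.36, adjusted P = 0.0277) at a level of 0.09 to 0.22 TPM in the group means. The COL6A3 groups did not overlap, but the call was lost with DESeq2 (adjusted P = 0.0525) and in 4 of the 6 fits that left out 1 library, among them the fit without the NC library that stood apart (0.90, adjusted P = 0.0692). The differences between responses were -1.03 for COL6A2 (SE 0.10, adjusted P = 1.25e-07) and -0.78 for COL6A1 (SE 0.08, adjusted P = 5.76e-07). COL6A3 did not differ past the threshold (-0.74, SE 0.59, adjusted P = 0.316).

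COL7A1, the chain of the anchoring fibrils below stratified epithelia, overlapped between NC and NONO-knockdown cells, at 19.1 to 23.3 and 20.1 to 22.6 CPM. After PKM2 knockdown it fell from 19.0, 20.1 and 22.1 CPM to 12.8, 9.46 and 10.9 CPM (log2 -0.88, SE 0.11, adjusted P = 2.14e-05), without overlap. The difference was -0.86 (SE 0.15, adjusted P = 0.000125), and on log2(TPM + 1) with limma it was -0.42 and not called (adjusted P = 0.279).

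COL12A1, a FACIT collagen of tendon and tumor stroma, fell after both knockdowns. Its NC libraries in the NONO experiment read 359, 277 and 305 CPM and the knockdown libraries 237, 236 and 244 CPM (log2 -0.39, SE 0.08, adjusted P = 0.00248). With PKM2 knockdown the values were 270, 255 and 255 CPM in NC cells and 159, 157 and 118 CPM after knockdown (log2 -0.84, SE 0.09, adjusted P = 7.03e-06). Groups did not overlap in either, and the libraries named above as standing apart, the first NC and the third PKM2-knockdown library, gave the highest and the lowest COL12A1 value. The fall was larger after PKM2 knockdown by 0.47 on the log2 scale (SE 0.14, adjusted P = 0.00792), and each of these calls held with any 1 library left out. On log2(TPM + 1) with limma the COL12A1 difference was -0.41 and not called (adjusted P = 0.057).

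COL9A2, a FACIT chain of cartilage, went from 1.36, 1.07 and 1.06 CPM to 0.539, 0.301 and 0.396 CPM after PKM2 knockdown (log2 -1.49, SE 0.35, adjusted P = 0.00231). The knockdown values rest on 13, 7 and 10 counts. In TPM these groups overlapped, at 0.58 to 1.53 in NC cells and 0.22 to 1.06 after knockdown. Its NONO-experiment libraries overlapped (0.888 to 1.48 and 1.07 to 1.37 CPM), and the difference of -1.53 was called (SE 0.46, adjusted P = 0.00928). COL16A1, a FACIT collagen of many connective tissues, was not called in either experiment, with log2 fold changes of -0.32 (SE 0.32) and 0.54 (SE 0.25, adjusted P = 0.073). The other 7 FACIT genes did not pass the filter.

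Among the transmembrane collagens, COL13A1 was not called in either experiment. It read 191, 246 and 240 CPM in NC cells and 216, 220 and 210 CPM after NONO knockdown (log2 -0.07, SE 0.08, adjusted P = 0.549). Around PKM2 knockdown it read 216, 218 and 228 CPM in NC cells and 209, 208 and 219 CPM after knockdown (log2 -0.05, SE 0.05, adjusted P = 0.311). Groups overlapped in both, and the difference between responses was -6.2e-05 (SE 0.10, adjusted P = 1). In TPM the PKM2-knockdown libraries (132 to 135) lay below the NC libraries (149 to 158), and limma on log2(TPM + 1) gave -0.20 with an adjusted P of 0.00342, beside a median of -0.094 for all genes on that scale, so for COL13A1 the call depends on the scale. Without the NC library that stood apart, its log2 fold change after NONO knockdown was -0.16 (adjusted P = 0.00059).

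COL17A1, the hemidesmosomal collagen that anchors basal epithelial cells, rose after both knockdowns. It read 6.87, 7.34 and 6.96 CPM in NC cells and 12.4, 13.8 and 14.5 CPM after NONO knockdown, 1.92-fold (log2 0.94, SE 0.11, adjusted P = 7.35e-05). After PKM2 knockdown it read 11.9, 9.67 and 9.83 CPM beside 6.72, 8.14 and 7.37 CPM in NC cells, 1.42-fold (log2 0.50, SE 0.12, adjusted P = 0.00333). Knockdown libraries lay above NC libraries in both. The difference of -0.45 was called (SE 0.16, adjusted P = 0.0274), but the call was lost in 6 of the 12 fits that left out 1 library, among them the fit without the third PKM2-knockdown library (-0.41, adjusted P = 0.0565), and on log2(TPM + 1) with limma (-0.41, adjusted P = 0.106). COL23A1 and COL25A1 did not pass the filter.

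The multiplexins COL15A1 and COL18A1, basement membrane collagens whose ends release the fragments restin and endostatin, changed in opposite directions after PKM2 knockdown. COL18A1 fell from 75.7, 80.4 and 77.6 CPM to 35.6, 32.7 and 30.8 CPM, 2.36-fold (log2 -1.24, SE 0.06, adjusted P = 1.26e-08). COL15A1 rose from 9, 10 and 11 counts to 39, 33 and 39, a 4.17-fold rise in CPM (log2 2.06, SE 0.31, adjusted P = 9.95e-05), and stayed under 1 TPM. Neither overlapped its NC group. After NONO knockdown COL18A1 fell from 79.3, 89.7 and 88.4 CPM to 70.0, 67.9 and 68.1 CPM (log2 -0.32, SE 0.06, adjusted P = 0.00105), and COL15A1 had 4 to 10 counts and did not pass that experiment's filter. The differences were -0.93 for COL18A1 (SE 0.08, adjusted P = 8.37e-08) and 2.25 for COL15A1 (SE 0.58, adjusted P = 0.00332).

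COL18A1 shares 1401 exon bases with SLC19A1, a folate carrier gene on the opposite strand, and no source used here says whether reads were counted by strand. SLC19A1 had 24.6 to 119 counts per library in the PKM2 experiment, beside 761 to 2219 for COL18A1, and was not called (log2 -0.97, SE 0.41, adjusted P = 0.0542). SLC19A1 was the only other gene tested between COL18A1 and COL6A2 on chromosome 21. All 3 collagens of that stretch fell after PKM2 knockdown.

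Summed over the 44 genes, collagen CPM was 1223, 1292 and 1295 in NC cells and 1199, 1199 and 1180 after NONO knockdown. Around PKM2 knockdown it was 1123, 1108 and 1130 in NC cells and 982, 971 and 903 after knockdown. The sums were lower in every knockdown library, with log2 ratios of the group means of -0.091 and -0.23. In bulk RNA, fewer cells with a transcript and less of it per cell cannot be told apart. By class, the PKM2 experiment showed the largest upward move in the short-chain sum, from 53.6 ± 2.4 (SD, n = 3) to 134 ± 3.2 (SD, n = 3) CPM. Type VI went from 149 ± 4.1 (SD, n = 3) to 73.1 ± 1.9 (SD, n = 3), FACIT from 263 ± 8.9 (SD, n = 3) to 148 ± 22.9 (SD, n = 3) and multiplexins from 78.3 ± 2.4 (SD, n = 3) to 34.6 ± 2.5 (SD, n = 3) CPM. The short-chain, FACIT and multiplexin sums came mostly from single genes, so they do not describe their classes. After PKM2 knockdown COL8A1 gave 134.1 of 134.3 CPM, COL12A1 144.8 of 147.5 CPM and COL18A1 33.1 of 34.6 CPM in the means. COL15A1, the other multiplexin, rose. The fibrillar sum stayed within its spread, at 114 ± 3.5 (SD, n = 3) and 113 ± 9.6 (SD, n = 3) CPM, with COL5A1 higher and COL27A1 lower.

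**Figure D4:**
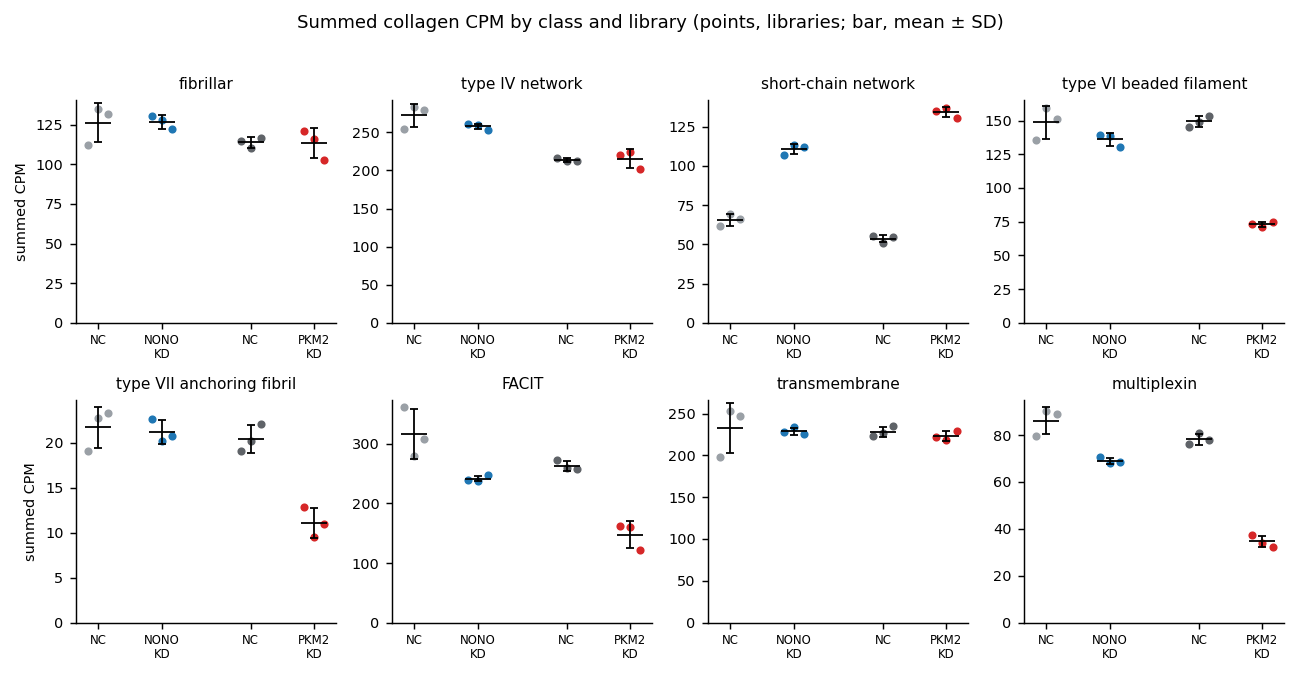
Summed TMM-normalized CPM (y axis, linear from 0) of the collagens of 8 classes in the 12 libraries; points are libraries and the bar is the mean ± SD of 3. In the PKM2 experiment the short-chain sum lies above its NC libraries and the type VI, type VII, FACIT and multiplexin sums lie below, while fibrillar, type IV and transmembrane sums overlap. The short-chain, FACIT and multiplexin sums are mostly COL8A1, COL12A1 and COL18A1.

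The genes that process collagen were described in 5 lists, whose counts stand beside the 33.4% (16.2% raised, 17.2% lowered) and 68.4% (33.6% raised, 34.7% lowered) of all genes called after NONO and PKM2 knockdown. No list was tested as a set. Of the prolyl and lysyl modification genes, 14 of 15 passed the filter, and 5 were raised and 2 lowered (50%, against 33.4% of all genes) after NONO knockdown (median log2 fold change 0.13). COLGALT1, which adds galactose to hydroxylysine (0.32), and P4HB, the common subunit of prolyl 4-hydroxylase (0.31), rose, and P4HA2, a catalytic subunit, was not called at 0.19 (adjusted P = 0.146). P3H4, a member of the complex that modifies lysines of the helix, fell by 0.48. After PKM2 knockdown 4 were raised and 8 lowered (85.7%, against 68.4% of all genes, with a median of -0.15), with the largest falls in P3H3 (-1.71, SE 0.22), P3H4 (-1.20, SE 0.08) and the lysyl hydroxylase PLOD1 (-1.18, SE 0.06). PLOD1 had risen after NONO knockdown (0.29), and its difference between responses was -1.48 (SE 0.08, adjusted P = 1.12e-10). P4HA2 fell by 0.26 after PKM2 knockdown (adjusted P = 0.00536).

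All 12 folding and export genes passed the filter. After NONO knockdown 5 were raised and 5 lowered (83.3%, against 33.4% of all genes, with a median of -0.054). After PKM2 knockdown it was 5 and 6 (91.7%, against 68.4%, with a median of -0.11). SERPINH1, the collagen chaperone HSP47, rose from 204 to 273 CPM in the group means after NONO knockdown (log2 0.42, SE 0.04, adjusted P = 2.05e-05). It fell from 222 to 159 CPM after PKM2 knockdown (log2 -0.48, SE 0.05, adjusted P = 3.81e-06). FKBP10, a prolyl isomerase that works with it, moved the same way (0.41 and -0.96), while its relative FKBP14 rose in both (0.44 and 1.30). On log2(TPM + 1) with limma the FKBP14 change after NONO knockdown was 0.078 and not called (adjusted P = 0.63). MIA3, the export receptor TANGO1, fell by 0.44 after NONO knockdown and rose by 0.30 after PKM2 knockdown, the fall without a call on log2(TPM + 1) with limma (adjusted P = 0.125). TMEM38B, an endoplasmic reticulum cation channel, rose by 0.85 after PKM2 knockdown and was not called after NONO knockdown (0.044), and the difference was called (0.79, SE 0.08, adjusted P = 3.37e-07).

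Genes for procollagen cleavage were not raised by either knockdown. Of 9 genes, 5 passed the filter in the NONO experiment with 3 lowered (median -0.45), beside 17.2% of all genes lowered. In the PKM2 experiment 6 passed with 5 lowered (median -1.19), beside 34.7% of all genes lowered. PCOLCE2, an enhancer of the C-proteinase, was lowered in both (-1.30, SE 0.16, and -1.39, SE 0.18). BMP1, the C-proteinase itself, had log2 fold changes of -0.30 and -0.38, and FURIN, a proprotein convertase, of -0.21 and -0.98, all called. The BMP1 call after NONO knockdown was lost in 4 of the 6 fits that left out 1 library, and that of FURIN on log2(TPM + 1) with limma (adjusted P = 0.0715). After PKM2 knockdown ADAMTS3, an N-proteinase, (-2.88, SE 0.25, adjusted P = 9.74e-07) and PCOLCE (-2.13, SE 0.25, adjusted P = 1.06e-05) were lowered.

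All 5 lysyl oxidases passed the filter, and after PKM2 knockdown 4 of them fell and 0 rose (median -1.16), beside 34.7% of all genes lowered and 68.4% called in either direction. LOXL2 was the most abundant, at 153 TPM ± 8.6 (SD, n = 3) in NC cells and 57.2 TPM ± 3.6 (SD, n = 3) after PKM2 knockdown (log2 -1.34, SE 0.06, adjusted P = 2.13e-09). LOXL1 (-1.60), LOXL3 (-1.16) and LOXL4 (-0.77) fell too, and LOX was not called (-0.049, SE 0.06, adjusted P = 0.509). After NONO knockdown LOXL1 fell by 0.61 and LOXL4 rose by 0.49 (median of the list -0.074), and LOX, LOXL2 and LOXL3 were not called, at -0.093, -0.074 and -0.047. Without the NC library that stood apart 4 lysyl oxidases were called in that experiment, with LOX at -0.22 (adjusted P = 0.0143) and LOXL2 at -0.12 (adjusted P = 0.004). In that fit 3189 of all 15170 genes tested were raised and 3060 lowered. Without the first NONO-knockdown library 0 lysyl oxidases were called, beside 1836 raised and 2011 lowered of all 15129 genes tested. On log2(TPM + 1) with limma the calls of LOXL4 after NONO knockdown (adjusted P = 0.149) and of LOXL3 after PKM2 knockdown (adjusted P = 0.0794) were lost, and LOX was called after PKM2 knockdown (-0.33, adjusted P = 0.0229).

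Of 11 collagen receptor genes, 8 passed the filter. After NONO knockdown 3 were raised and 2 lowered (62.5%, against 33.4% of all genes, with a median of 0.085). After PKM2 knockdown 1 was raised and 5 lowered (75%, against 68.4%, with a median of -0.78). ITGB1, an integrin beta chain, stood at 732 TPM ± 12.4 (SD, n = 3) in NC cells and 297 TPM ± 23.3 (SD, n = 3) after PKM2 knockdown. This was a fall of 1.18 on the log2 scale (SE 0.04, adjusted P = 1.24e-09). After NONO knockdown ITGB1 rose by 0.40 (SE 0.03, adjusted P = 6.61e-06), and the difference was -1.59 (SE 0.06, adjusted P = 1.08e-12). ITGA10, a collagen-binding integrin chain, rose by 1.10 after NONO knockdown (SE 0.33, adjusted P = 0.0253), a call lost with DESeq2 (adjusted P = 0.127). Its NC libraries there read 1.51, 4.82 and 6.26 CPM, with the library that stood apart lowest. With 1 library left out the rise lay between 0.72 and 1.52, and the call was lost in 2 of the 6 fits. ITGA10 fell by 2.24 after PKM2 knockdown (SE 0.34, adjusted P = 9.98e-05). MRC2, an endocytic collagen receptor, was lowered in both (-0.51 and -2.14), though its NONO call was lost with DESeq2 (adjusted P = 0.119), on log2(TPM + 1) with limma (adjusted P = 0.151) and in 4 of the 6 fits that left out 1 library. DDR1, a collagen-activated receptor tyrosine kinase, was lowered after PKM2 knockdown (-1.97, SE 0.12, adjusted P = 3.83e-08) and was not called after NONO knockdown (-0.24), except without the NC library that stood apart (-0.39, adjusted P = 0.00902). ADGRG1, an adhesion receptor that binds type III collagen, was lowered in both (-0.44 and -0.39). The list values are not adjusted for the length and GC trend. With it removed, the PKM2 response of BMP1 moved from -0.38 to -0.15 and of FURIN from -0.98 to -0.70. PLOD1 moved from -1.18 to -0.95 and P3H4 from -1.20 to -0.99, both less than a 2-fold fall. LOXL1 moved from -1.60 to -1.31 and LOXL2 from -1.34 to -1.12. Some moved away from 0, such as ITGB1 (-1.18 to -1.27) and PCOLCE2 (-1.39 to -1.44).

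**Figure D5:**
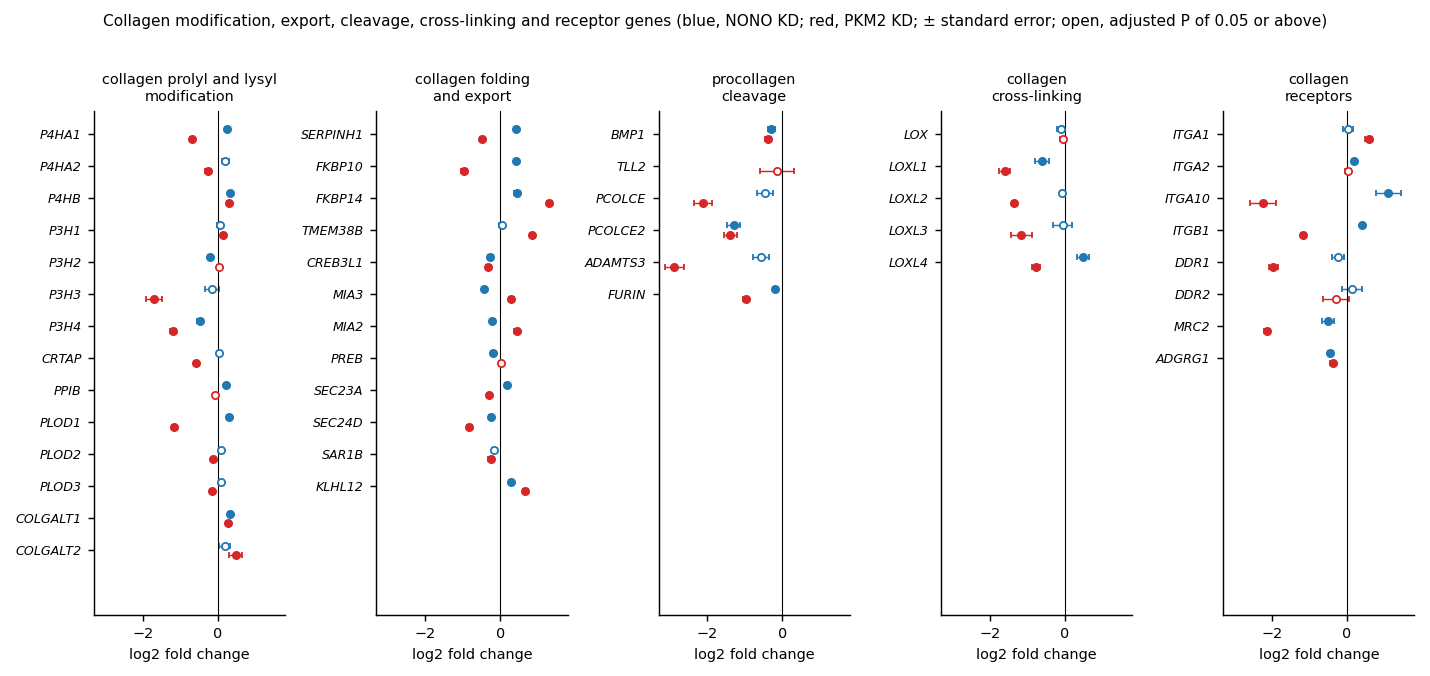
Log2 fold change (x axis, ± standard error) of the tested genes of 5 collagen-processing lists after NONO knockdown (blue) and PKM2 knockdown (red); open points have an adjusted P of 0.05 or above. After PKM2 knockdown the 5 called cleavage genes and the 4 called lysyl oxidases lie left of 0, down to -2.88 for ADAMTS3.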

How the data were processed

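Poly(A)-selected RNA of the 12 libraries was sequenced as paired reads of 150 bases, and no source used here gives the strand setting of the counting. For every gene and library the authors deposited an estimated count, which need not be whole, and a TPM value, which the authors normalized for transcript length and depth. The submitters' processing notes name HISAT2, StringTie, RSEM and the build hg19, with no roles given. The authors' own fold changes and P values were not used. The tables share column names, so a column was assigned to its experiment by its table, and 0 columns per library were left unused.

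Estimated counts were rounded, and each experiment was fitted in edgeR 4.0.16 (R 4.3.3) with TMM factors, filterByExpr and the quasi-likelihood test, in a fit of 6 libraries. The interaction used 12. Adjusted P values are Benjamini-Hochberg over all genes tested. CPM values are TMM-normalized. Alternatives were DESeq2 1.42.0, RLE factors, no filter, a replicate block, limma 3.58.1 on log2(TPM + 1) or log2(TPM + 0.1), each library left out, and subtraction of the trend of fold changes with transcript length and GC content (20 bins each). The procedures were tested on simulated data. The members, the lists and the tests were chosen with earlier results of these data known. Library values or their ranges are printed for most collagens with a mean of at least 1 TPM in a group or called past 2-fold. From the lists, fold changes are given for up to 3 called genes of largest change per list and experiment. LOX, SERPINH1, P4HA2 and ITGB1 are given besides. Gene positions are from GENCODE 29 on GRCh38 and served for location only, and promoter sequences are from RefSeq.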

Additional observations from a re-analysis of the deposited data

Results flagged for a closer look

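The results below were picked out because the response to PKM2 knockdown differed from the response to NONO knockdown in the interaction test (adjusted P below 0.05 over 15995 genes). Each value is the PKM2 response minus the NONO response on the log2 scale. The difference was upward for COL1A1 (1.04), COL5A1 (0.46), COL5A2 (1.31), COL11A2 (1.98), COL4A1 (1.08), COL8A1 (0.56) and COL15A1 (2.25). It was downward for COL27A1 (-1.14), COL4A2 (-0.25), COL4A4 (-2.25), COL4A5 (-2.80), COL6A1 (-0.78), COL6A2 (-1.03), COL7A1 (-0.86), COL9A2 (-1.53), COL12A1 (-0.47), COL17A1 (-0.45) and COL18A1 (-0.93). No collagen group held enough libraries for a test of single outlying values.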

How the results depend on the processing

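With each of the 12 libraries left out, 4 to 6 collagens were raised and 4 to 8 lowered after NONO knockdown, 7 to 8 raised and 10 to 11 lowered after PKM2 knockdown, and 17 to 18 differed between the knockdowns. Over all genes these fits called 1658 to 3189 raised and 1868 to 3060 lowered after NONO knockdown. After PKM2 knockdown they called 4862 to 5376 raised and 5029 to 5487 lowered. The number of cross-linking genes called after NONO knockdown went from 2 to between 0 and 4 and of receptor genes from 5 to between 2 and 6. On TPM with limma, fewer genes were called (over all genes 911 raised and 1734 lowered after NONO knockdown, against 2396 and 2558 by edgeR). Collagens raised after NONO knockdown numbered 3 with a pseudocount of 1, of 0.1 and without the filter, and those lowered 2 without the filter. Collagens raised after PKM2 knockdown numbered 4 with either pseudocount, and those that differed 8, 8 and 10. Over all genes limma with a pseudocount of 1 called 3525 raised and 4862 lowered after PKM2 knockdown. It called 2955 differences upward and 3483 downward. Folding and export genes called after NONO knockdown numbered 5, 5 and 4, cross-linking genes 1, 1 and 0, receptor genes 2, 2 and 2, and cleavage genes 1 without the filter. DESeq2 called 3 receptor genes. On that scale, the PKM2 response of all genes had a median of -0.094 with a pseudocount of 1 and of -0.10 with 0.1. The cause of these changes was not tested.

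Among the named genes, these directions changed. With the length and GC trend removed, COL4A2's difference was 0.014, COL13A1 after PKM2 knockdown 0.16 and COL7A1 after NONO knockdown 0.055. On TPM, COL9A2 after NONO knockdown was -0.082, -0.060 and -0.082, LOXL3 0.050, 0.079 and 0.050 and TMEM38B -0.18, -0.19 and -0.18. With 1 library left out, values ranged from -0.11 to 0.024 for COL7A1, from -0.14 to 0.22 for COL9A2, from -0.16 to 0.0042 for COL13A1 and from -0.24 to 0.12 for LOXL3 after NONO knockdown, and from -0.094 to 0.015 for LOX after PKM2 knockdown. Same-numbered libraries correlated between -0.065 and 0.036 in their deviations, so the numbers do not pair them. The replicate block called 6 collagens raised and 5 lowered after NONO knockdown, 8 and 10 after PKM2 knockdown and 17 differences, and among the named genes lost only the calls of COL17A1's difference (-0.45, adjusted P = 0.0512) and of BMP1 after NONO knockdown (-0.30, adjusted P = 0.055). Depth limits the collagens with few counts, where COL15A1 and COL11A2, with 5 to 39 counts per library, had standard errors of 0.31 and 0.38 after PKM2 knockdown.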
